A study of Mus musculus with 6 samples.

Results

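The disease-associated microglia markers examined here are 10 genes, Trem2, Tyrobp, Cst7, Clec7a, Lpl, Gpnmb, Igf1, Lgals3, Fabp5 and Cd9, out of 19938 genes that the arrays measure through a probe set with a single gene symbol. They are named as activation-state markers and the TREM2 pathway. The rule uses gene names and no measured value, although it was set with earlier results of these data known. All 10 were measured, 9 through 1 probe set and Fabp5 through 2, which makes 11 probe sets. RNA came from primary cultures of microglia (macrophages that reside in the brain) obtained from the cerebral cortex of mice aged 2 days. After 10 days of culture the microglia were collected and replated for 24 h, with no further treatment named in the labels. There were 3 arrays of fosB-null microglia, from mice homozygous for the null allele fosBG, whose line had been backcrossed to C57BL/6J for 20 generations, and 3 arrays of wild-type microglia from C57BL/6J mice. The null allele was inherited through the germ line, so every cell of the culture carried it, and the labels do not say how many pups gave a culture or whether pups were pooled.

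Disease-associated microglia are a state seen around amyloid plaques and in other settings of neural damage, in which microglia lower their resting-state genes and raise genes of phagocytosis, lysosomes and lipid handling. Entry into the full state in mice needs TREM2, a surface receptor for lipids and lipoproteins that signals through the adaptor TYROBP (DAP12) and the kinase SYK. Cultured microglia are known to carry much of this program without any disease. Fosb encodes FosB, which pairs with Jun proteins to form the transcription factor AP-1, and AP-1 binds DNA at TGACTCA and close variants of it.

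Because FosB acts through AP-1 sites, promoter windows that hold such letters are shown first. RefSeq windows of build GRCm38.p6, running from 250 bases before to 50 bases after a gene's start, were at hand for 7 of the 10 genes, in 8 windows. The motif TGANTCA, which reads the same on both strands, occurred in the windows of 4 genes, Cst7, Trem2, Gpnmb and Igf1. Of all 32851 RefSeq windows of the same length, 7.81% held it. The narrower TGACTCA, searched on both strands and contained in TGANTCA, occurred in the window of Gpnmb alone, against 5.2% of all windows. A match is a description of letters and does not show binding. The 4 windows are printed 5′ to 3′ on the plus strand, which is the strand of each gene, with the TGANTCA match in capitals. They lie at chr2:150570165-150570464 for Cst7, chr17:48346151-48346450 for Trem2, chr6:49036268-49036567 for Gpnmb and chr10:87860861-87861160 for Igf1.
Cst7: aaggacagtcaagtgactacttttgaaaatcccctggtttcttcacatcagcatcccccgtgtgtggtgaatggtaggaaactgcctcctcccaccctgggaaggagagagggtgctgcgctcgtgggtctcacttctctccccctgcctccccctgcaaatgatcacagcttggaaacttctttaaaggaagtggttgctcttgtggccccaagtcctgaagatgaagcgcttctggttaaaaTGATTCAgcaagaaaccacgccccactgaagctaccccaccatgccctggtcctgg
Trem2: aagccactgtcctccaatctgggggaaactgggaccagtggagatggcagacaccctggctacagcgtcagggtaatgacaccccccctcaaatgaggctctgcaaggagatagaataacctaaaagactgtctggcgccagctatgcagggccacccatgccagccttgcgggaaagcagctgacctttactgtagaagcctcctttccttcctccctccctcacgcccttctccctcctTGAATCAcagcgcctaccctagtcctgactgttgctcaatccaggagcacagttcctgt
Gpnmb: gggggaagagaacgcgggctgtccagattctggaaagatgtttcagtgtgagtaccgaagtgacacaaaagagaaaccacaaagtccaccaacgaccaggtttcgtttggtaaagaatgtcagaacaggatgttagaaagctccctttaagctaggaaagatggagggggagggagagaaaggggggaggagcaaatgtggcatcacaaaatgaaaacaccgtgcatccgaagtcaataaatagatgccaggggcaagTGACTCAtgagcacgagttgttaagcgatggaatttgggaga
Igf1: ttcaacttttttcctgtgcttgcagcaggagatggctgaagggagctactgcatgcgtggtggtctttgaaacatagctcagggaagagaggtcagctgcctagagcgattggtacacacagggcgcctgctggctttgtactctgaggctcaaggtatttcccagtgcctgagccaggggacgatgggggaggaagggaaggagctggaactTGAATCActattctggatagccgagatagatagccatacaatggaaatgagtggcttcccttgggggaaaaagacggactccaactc
The match began 6 bases before the annotated start in Cst7, 9 before it in Trem2, 37 before it in Igf1, and at base 9 after it in Gpnmb. Clec7a, Lgals3 and Cd9 had a window without these letters.

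The 10 genes had nearly the same signal in fosB-null and wild-type microglia, with the exception of Cst7, whose mean was 1.21-fold higher in fosB-null arrays without passing the adjusted threshold. Signals are log2 values per probe set and array, as the authors deposited them, and differences are fosB-null minus wild-type. In limma, fitted over 23410 probe sets with Benjamini-Hochberg adjustment, 0 of the 10 genes had an adjusted p under 0.05, where 0.00427% of all tested probe sets did (1 probe set). At an unadjusted p under 0.05 there was 1 gene, Cst7, against a background of 0.722%, or 1.5% with the dimmest 40% left out. The replicate number as a fixed block gave 0 genes at that unadjusted threshold (background 2.31%) and as a random block 2, Cst7 and Fabp5 (background 9.63%), and neither gave a gene at the adjusted threshold. The groups overlapped or touched in all 10 genes, whereas 1.12% of tested probe sets had groups that did not. The median difference of the 10 genes was 0.0008, beside 0 over all tested probe sets, with 5 genes above 0 and 5 below. Quantile normalization turned this split to 4 above and 6 below, and centring each array on its median to 2 above and 8 below.

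Arrays with the same replicate number form pairs in these data, and many of their values are exactly equal, so pair differences are given beside the group means. Same-numbered arrays held the same value in 62.3%, 54.7% and 56% of tested probe sets in pairs 1, 2 and 3, and no other pair of arrays shared more than 3 values. Among the 10 genes, 3, 4 and 2 were tied in the 3 pairs, and 7 were tied in at least 1. What processing gave such ties is not recorded in the labels, and a tie does not measure equality. The labels call the arrays biological replicates without saying what a number stands for, so p-values measure the spread between these arrays. In the fit without a block, that spread takes in shifts that same-numbered arrays share. Its standard errors and intervals are therefore not those of the pair differences. For Trem2 the pair differences were 0, -0.025 and 0, beside a standard error of 0.08 in that fit.

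**Figure D1:**
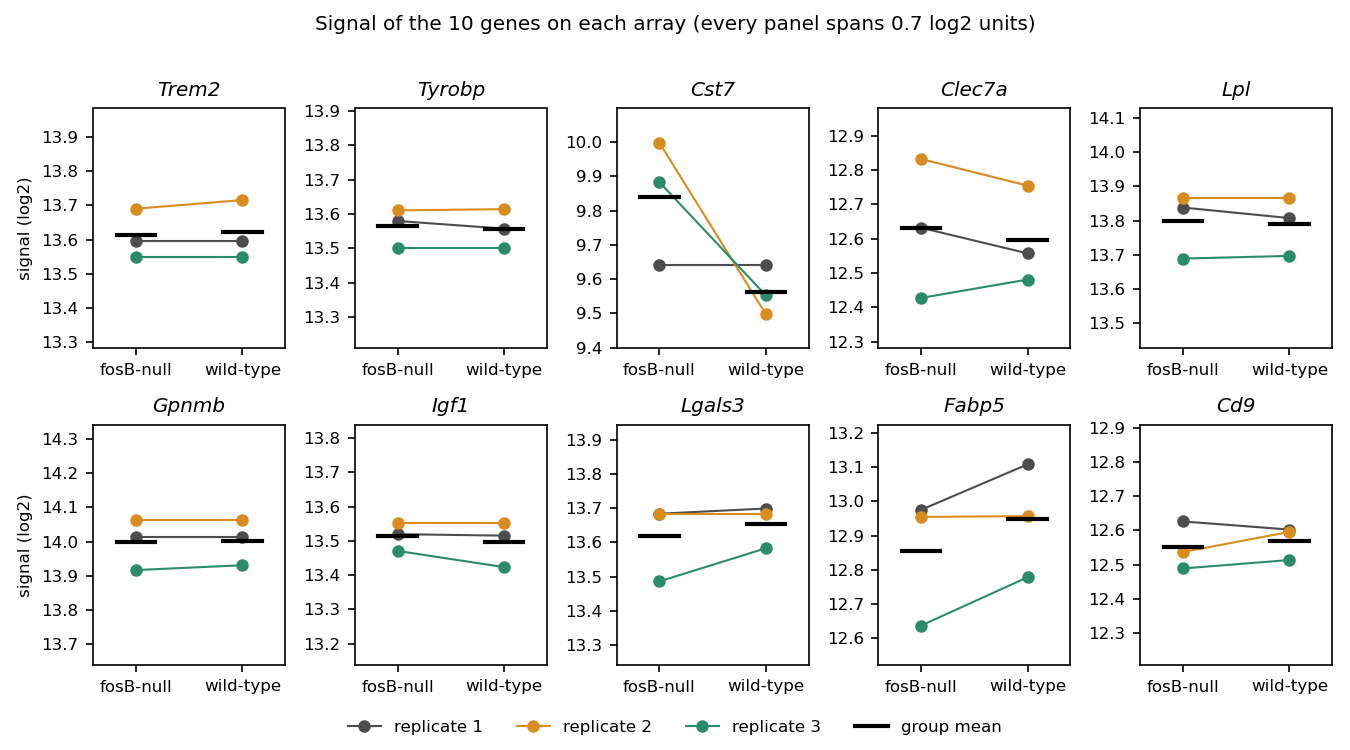
Signal (log2) of the 10 genes on each array, with fosB-null on the left and wild-type on the right of each panel, lines joining arrays of the same replicate number and black bars at the group means. Every panel spans the same 0.7 log2 units; 9 genes have lines that lie close to level, and in Cst7 the fosB-null arrays 2 and 3, at 9.998 and 9.88, stand above all wild-type arrays.

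The receptor and its adaptor were nearly level between the genotypes. Trem2 had a log2 signal of 13.60, 13.69 and 13.55 in fosB-null replicates 1, 2 and 3, against 13.60, 13.72 and 13.55 in wild-type replicates 1, 2 and 3. The groups overlapped fully, and replicates 1 and 3 were tied. Trem2 differed by -0.01, with a standard error of 0.08 and a 95% interval of -0.19 to 0.18, that is, a fold between 0.874 and 1.13 (limma, unadjusted p = 0.917, adjusted p = 1). Tyrobp, which carries the signal of TREM2 and of several other myeloid receptors into the cell, had 13.58, 13.61 and 13.50 in fosB-null arrays, against 13.56, 13.61 and 13.50 in wild-type arrays. Its values also overlapped, and replicate 3 was tied. Tyrobp differed by 0.01 (standard error 0.07, 95% interval -0.16 to 0.17). Tyrobp is the only one of the 10 genes on the chromosome of Fosb, and lies 230 measured genes away from it in RefSeq order.

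Cst7 encodes cystatin F, an inhibitor of cysteine cathepsins that acts inside lysosomes, and it had the largest difference of the 10 genes. Its signal was 9.64, 9.998 and 9.88 in fosB-null arrays, against 9.64, 9.50 and 9.55 in wild-type arrays. The fosB-null arrays 2 and 3 lay above every wild-type array, while the arrays of replicate 1 were tied at the highest wild-type value. The means were 9.84 ± 0.18 in fosB-null and 9.56 ± 0.07 in wild-type arrays (SD, n = 3 each) and differed by 0.28 (standard error 0.11, 95% interval 0.03 to 0.53). Its p in limma was 0.0349 before adjustment and 1 after it. Within pairs 1, 2 and 3 the difference was 0, 0.50 and 0.33. A fixed replicate block in limma gave an unadjusted p of 0.158 (adjusted 0.674), and a random one 0.0171 (adjusted 0.399). Leaving out both arrays of replicate 2 gave 0.17 (limma, unadjusted p = 0.212), and leaving out both of replicate 1 gave 0.42. The unadjusted call ended with array weights, where the difference was 0.16 (limma, unadjusted p = 0.156), and in 6 of the 9 fits that left out arrays.

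The genes whose array pattern lay closest to that of Cst7 were Wnk1, Malat1 and Pou5f2. Likeness was the root mean square difference between profiles centred on their own mean over the 6 arrays, among 12413 probe sets whose SD was at least 0.5 times that of Cst7. It was 0.072 for Wnk1, a kinase of ion transport, 0.073 for Malat1, a nuclear long non-coding RNA, and 0.074 for Pou5f2. Being picked for this likeness, they share the higher fosB-null values of Cst7 by construction, with mean differences of 0.28, 0.23 and 0.27. Closeness in pattern over 6 arrays says nothing of shared function.

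The surface receptor Clec7a (dectin-1), which recognises beta-glucans, had 12.63, 12.83 and 12.43 in fosB-null arrays, against 12.56, 12.75 and 12.48 in wild-type arrays. Replicate 2 was the highest and replicate 3 the lowest in both groups, and the groups overlapped. Clec7a differed by 0.03 (standard error 0.12, 95% interval -0.26 to 0.33). The tetraspanin Cd9, a membrane organiser that oligodendrocytes also express, had 12.63, 12.54 and 12.49 in fosB-null arrays, against 12.60, 12.60 and 12.51 in wild-type arrays. Its groups overlapped too, and the difference was -0.02 with a 95% interval of -0.19 to 0.15.

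Of the lipid genes, Lpl did not differ beyond the replicate spread and Fabp5 was slightly lower in each pair. Lpl, the lipoprotein lipase that releases fatty acids from triglycerides, had 13.84, 13.86 and 13.69 in fosB-null arrays, against 13.81, 13.86 and 13.70 in wild-type arrays. The difference was 0.01 with a 95% interval of -0.19 to 0.20. Fabp5, a carrier of fatty acids within the cell, had 12.98, 12.95 and 12.64 in fosB-null arrays, against 13.11, 12.96 and 12.78 in wild-type arrays by the probe set with the higher mean signal. Its second probe set had 12.58, 12.62 and 12.30 in fosB-null arrays, against 12.76, 12.63 and 12.46 in wild-type arrays. Both sets had lower values in fosB-null arrays in every pair, yet the groups overlapped, with replicate 3 low in both genotypes. The pair differences were -0.13, -0.003 and -0.14 for the first set and -0.17, -0.005 and -0.15 for the second, so pair 2 showed almost none. The mean differences were -0.09 and -0.11, with 95% intervals of -0.39 to 0.21 and -0.39 to 0.17. limma gave unadjusted p of 0.49 and 0.377, and with the random block 0.0317 and 0.0218, where the adjusted p was 0.452 and 0.415. Fabp5 was the only one of the 10 genes with the same sign in all 3 pairs, a property of 7.77% of tested probe sets, or 5.57% counting those lower in fosB-null arrays. The platform lists the same 5 transcripts for both probe sets, and what related sequences either set may also bind was not tested.

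Gpnmb, Lgals3 and Igf1 complete the list. Gpnmb, a transmembrane glycoprotein of lysosome-rich macrophages, had 14.01, 14.06 and 13.92 in fosB-null arrays, against 14.01, 14.06 and 13.93 in wild-type arrays, with replicates 1 and 2 tied. The difference was -0.005 with a 95% interval of -0.18 to 0.17. Lgals3 encodes galectin-3, a sugar-binding protein released by activated microglia and drawn to damaged lysosomes. It had 13.68, 13.68 and 13.49 in fosB-null arrays, against 13.70, 13.68 and 13.58 in wild-type arrays. Its groups overlapped, and the lower fosB-null mean came mostly from pair 3, at -0.10, with a mean difference of -0.04 and a 95% interval of -0.24 to 0.16. Igf1, a growth factor that microglia secrete, had 13.52, 13.55 and 13.47 in fosB-null arrays, against 13.52, 13.55 and 13.42 in wild-type arrays. The Igf1 groups overlapped, and the difference was 0.02 with a 95% interval of -0.15 to 0.18.

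**Figure D2:**
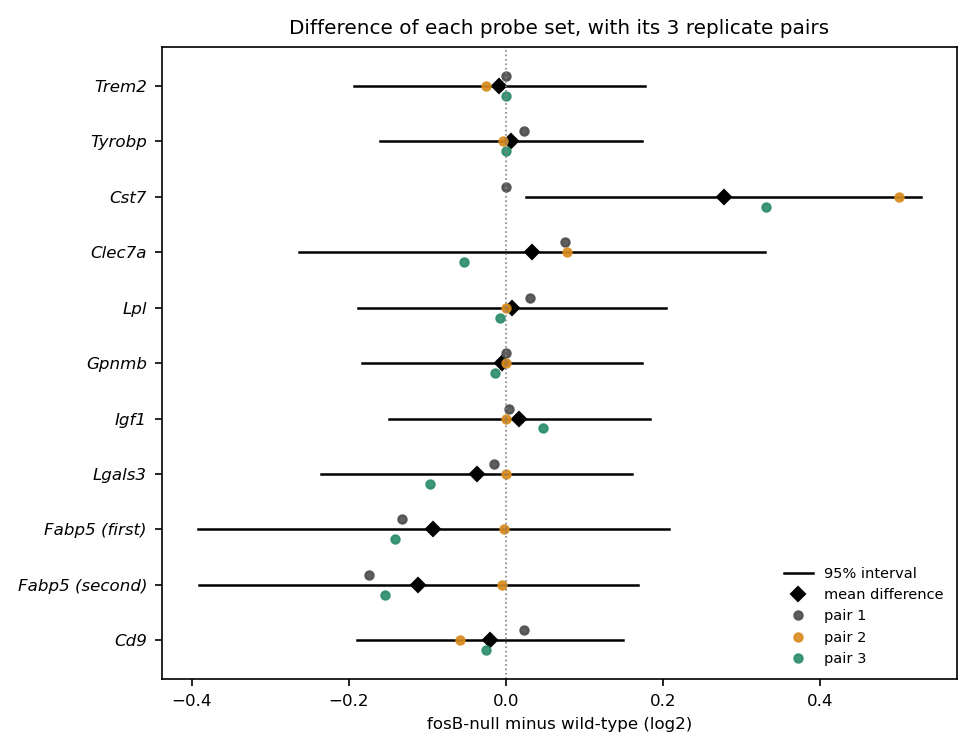
Difference in log2 signal, fosB-null minus wild-type, for the 11 probe sets, with the mean as a diamond, its 95% limma interval as a line and the 3 replicate pairs as coloured points. The interval of Cst7, from 0.03 to 0.53, is the one that does not cross 0, and its pair 1 sits at 0.

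In 9 of the 10 genes the 95% interval lay within 0.5 log2 units of 0, and Cst7 was the exception. The same held for 91.4% of all tested probe sets, and for 96.8% of those with a mean of 12 or above. Of these 9 genes 3 had no tied pair, so most of the intervals rest in part on exact ties. These bounds concern array signal, and 10 of the 11 probe sets had mean signals above 12 on arrays whose highest values were 14.5 to 14.6. Of 955 tested probe sets with a mean from 12 to 13, 3 differed by more than 0.25, with a largest difference of 0.901, and of 454 with a mean of 13 or above, 10 did, with a largest of 0.286. These are 0.314% and 2.2%, beside 1.79% over all tested probe sets, 1.84% at means from 10 to 12 and 4.2% from 8 to 10, where Cst7 lies. Whether high signals are compressed on this platform was not tested. A bulk array also cannot tell fewer cells that express a gene from less RNA per cell.

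As in most of the table, the span over replicate numbers was larger in most of these genes than the genotype difference. The pair means of 1 gene spanned 0.11 to 0.34 log2 units over the 3 pairs, and this span exceeded the genotype difference in 9 of the 10 genes, all but Cst7. Over all tested probe sets it did so in 97%. A range of 3 pair means and a mean of 3 pair differences are unlike measures, and exact ties enter the second as 0. Replicate 3 was the lowest array in both genotypes for those same 9 genes. The property was common at such levels, holding for 1126 of 1409 tested probe sets with a mean of 12 or above, or 79.9%. After quantile normalization it held for 1 of the 10 genes and after median centring for 7.

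The partners and signalling genes of TREM2 showed no called change. Of 20 listed genes all were measured, with 9 above wild-type, 7 below and 4 tied in every pair, a median difference of 0 (30.9% of all tested probe sets were above and 41.3% below) and 0 past the limma adjusted threshold (0 also at an unadjusted p under 0.05). The lowest p belonged to Cd33, a sialic acid receptor, with a difference of 0.20 and 0.12, 0.32 and 0.16 in the pairs. Ms4a4a, of the membrane-spanning 4A family, came next, with -0.33 and -0.42, 0 and -0.56 in the pairs. The adaptor Lat2 and the signalling protease Malt1 differed by 0.13 each. Syk, named after its values were seen, differed by -0.11, with -0.25, -0.05 and -0.05 in the pairs. Its p in limma was 0.34 unadjusted, and 0.035 with the random block (adjusted 0.464). It was the 1 gene of the list lower in all 3 pairs, and 4 were higher in all 3. With the dimmest 40% of probe sets left out, 8 of 18 were above and 7 below, beside 31.9% and 52.7%. Centring the arrays on their medians changed the split to 5 above and 15 below, beside 84% below over all tested probe sets in that setting. With the random block 5 of the 20 reached an unadjusted p under 0.05, or 25%, against 9.63% of all tested.

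Of 25 other genes of the disease-associated state 23 were measured, and 17 were above wild-type, 5 below and 1 tied in every pair, with a median difference of 0.006. Over all tested probe sets 30.9% were above, 41.3% below and 27.8% at 0. With the dimmest 40% of probe sets left out, 31.9% were above and 52.7% below, and the list kept its split. The split turned to 7 above and 16 below with median centring, where 84% of all tested probe sets were below, and to 5 above and 18 below without fosB-null replicate 2, where 74.9% were. None passed the limma adjusted threshold. Ch25h, whose enzyme makes 25-hydroxycholesterol, alone reached an unadjusted p under 0.05, as 0.722% of all tested probe sets did. That share was 1.5% with the dimmest 40% left out. With the replicate block 2 of the 23 reached an unadjusted p under 0.05, or 8.7%, against 2.31% of all tested. With the random block 5 did, or 21.7%, against 9.63%. Ch25h had 10.09, 10.62 and 10.90 in fosB-null arrays, against 9.53, 10.13 and 9.999 in wild-type arrays. It was higher in all 3 pairs, by 0.56, 0.49 and 0.90, although the groups overlapped. Its mean difference was 0.65, with a standard error of 0.24 (limma, unadjusted p = 0.0295, adjusted p = 1, or 0.0697 with the random block). The cathepsin Ctsl, the lipoprotein gene Apoe and the surface glycoprotein Cd52 came next, with differences of -0.12, -0.10 and 0.17. Apoe was chosen apart from the 10 genes and is close to Fosb on the chromosome. Itgax, an integrin of the same state that was named after its values were seen, differed by 0.44, 0.48 and -0.57 in the 3 pairs.

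Genes of lipid handling and lysosomal regulation were mostly slightly below wild-type. Of 14 listed genes 12 were measured, 11 below and 1 above, with a median difference of -0.06 and 0 past the limma adjusted threshold (0 also at an unadjusted p under 0.05). At that unadjusted threshold there was 1 with the replicate block, Plin2, which coats lipid droplets, and there were 6 with the random block, against 2.31% and 9.63% of all tested probe sets. Plin2, named after its values were seen, differed by -0.06, -0.07 and -0.06 in the pairs. Of the 12 genes 4 were lower in all 3 pairs, against 5.57% of tested probe sets. The pair medians were -0.008, -0.06 and -0.14. Fabp4, a paralogue of Fabp5, differed by -0.20, Fabp3, another, by -0.13, the lysosomal regulator Tfeb by -0.11 and the oxysterol receptor Nr1h3 (LXR alpha) by -0.13. Over all tested probe sets 41.3% were below. With the dimmest 40% of probe sets left out, 52.7% were below, and the list kept its 11 below and 1 above. With both arrays of 1 replicate number left out, 1 or 2 genes were above and 9 or 11 below. Single arrays moved the split, to 6 and 6 without fosB-null replicate 3 and to 5 above and 7 below without wild-type replicate 2, and all tested probe sets moved the same way, to 57% and 67% above. Of the genes around Igf1, all 9 listed receptors, binding proteins and the related Igf2 were measured, with 4 above wild-type, 4 below and 1 tied, and 0 past either threshold. Igfbp5 differed by -0.33 and Igfbp4 by 0.13, and the receptor genes Igf2r and Igf1r by -0.07 and -0.06.

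**Figure D3:**
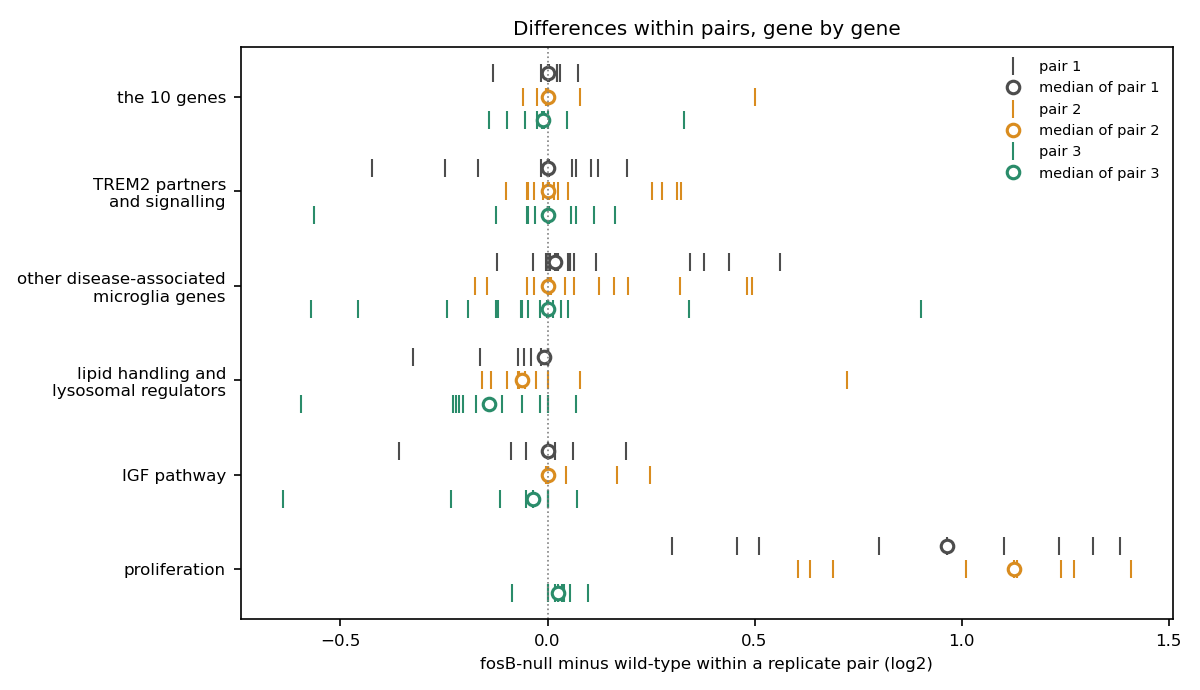
Differences in log2 signal within each replicate pair, fosB-null minus wild-type, for the 10 genes and 5 lists, with a tick for each gene and a circle at the median. The 10 genes lie close to 0 in each pair apart from the Cst7 ticks at 0.50 and 0.33, whereas the proliferation genes lie far to the right in pairs 1 and 2, with medians of 0.97 and 1.13, and near 0 in pair 3.

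Proliferation genes had larger mean differences than the 10 genes. This list was given because earlier work on these data had shown it moving in pairs 1 and 2. Its counts are therefore no independent support for such a shift. All 9 measured genes of 10 listed were above wild-type, with a median difference of 0.71 and pair medians of 0.97, 1.13 and 0.03. Over all tested probe sets 30.9% were above. None passed the limma adjusted threshold, and 4 reached an unadjusted p under 0.05, where 0.722% of all tested probe sets did. That count was 0 with the replicate block and 9 with the random block. It was 0 without fosB-null replicate 2, where the median was 0.45, without wild-type replicate 1, where it was 0.46, and without wild-type replicate 2, where it was 0.76. It was also 0 without both arrays of replicate 1 or of replicate 2, with medians of 0.59 and 0.50, and 7 without wild-type replicate 3. The cyclin Ccnb2, the checkpoint kinase Bub1, Melk and the spindle protein Nusap1 differed by 0.78, 0.89, 0.31 and 0.71. Over the 10 disease-associated genes the pair medians were 0.002, 0 and -0.01, and the part of proliferation in the values of Cst7, which was tied in pair 1, was not tested.

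Markers of microglia and of further cell types were read from the same arrays. The 11 measured homeostatic microglia markers had mean signals from 7.40 for Siglech to 13.4 for Csf1r, with P2ry12 at 8.82 and Tmem119 at 9.02, and no detection call was used here to say which lie above background. Their list mean was 10.4 to 10.6 in fosB-null arrays and 10.3 to 10.6 in wild-type arrays. Of these markers 8 were above wild-type, 2 below and 1 tied, beside 30.9% above and 41.3% below over all tested probe sets. With the dimmest 40% of probe sets left out, 8 of 10 were above and 2 below, beside 31.9% and 52.7%. The split turned to 3 above and 8 below without wild-type replicate 1, where 67.9% of all tested were below. Without wild-type replicate 3 it was 5 above and 6 below, where 59.1% of all tested were below. Without wild-type replicate 2 it was 11 above and 0 below, where 67% of all tested were above. The purinergic receptor P2ry13 differed by 0.27 (0.45, 0.32 and 0.03 in the pairs), Fcrls by 0.13 and Aif1 by 0.09. Each was higher in all 3 pairs. Of tested probe sets 7.77% had the same sign in all 3, in either direction, and most of these were lower (5.57% of tested). Cx3cr1, the fractalkine receptor, differed by 0.06. Sets for astrocytes ranged from 7.51 to 7.65 in fosB-null arrays and 7.54 to 7.73 in wild-type arrays (8 of 8 measured), and for the oligodendrocyte lineage from 8.22 to 8.38 and 8.23 to 8.47 (9 of 10 measured). The neuron set ranged from 7.30 to 7.37 in fosB-null arrays and 7.30 to 7.39 in wild-type arrays (8 of 8), and the fibroblast and mural set from 7.24 to 7.44 and 7.23 to 7.40 (8 of 8). The border macrophage set ranged from 9.26 to 9.44 in fosB-null arrays and 9.18 to 9.33 in wild-type arrays (8 of 8). No marker passed the limma adjusted threshold, and without a block none had an unadjusted p under 0.05. With the replicate block 1 did, Siglec1 of the border macrophage set, against 2.31% of all tested probe sets. With the random block 3 of 8 border macrophage, 2 of 11 homeostatic and 1 of 9 oligodendrocyte markers did. These are 37.5%, 18.2% and 11.1%, against 9.63% of all tested. The astrocyte, neuron, and fibroblast and mural sets had 0 in that fit. Of the 8 genes in each, however, 7, 2 and 3 were tied in every pair. Their differences of 0 come from the ties and do not measure equality between the genotypes. The myelin gene Mbp, an oligodendrocyte marker, differed by -0.21, with -0.32, -0.24 and -0.06 in the pairs and groups that did not overlap. Of the 8 border macrophage markers 5 were above wild-type, 0 below and 3 tied in every pair. Median centring turned this to 4 above and 4 below, where 84% of all tested probe sets were below. Mrc1, one of them, differed by 0.27, with 0.29, 0.55 and -0.03 in the pairs, and Siglec1 by 0.15, with 0.11, 0.22 and 0.11. The part of either cell type in the values of the 10 genes was not tested. Fabp7, an astrocyte marker and a paralogue of Fabp5, differed by -0.32, from pair differences of -0.22, -0.87 and 0.12, and its part in the Fabp5 signal was not tested. Fosb itself had 7.82, 8.05 and 7.83 in fosB-null arrays, against 8.01, 8.14 and 7.92 in wild-type arrays (difference -0.12, limma adjusted p = 1). The labels do not say where its probes lie relative to the mutation, so this is no check of the genotype.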

How the data were processed

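RNA from primary microglia cultures was hybridised to 6 whole-transcript arrays, from 100 ng of total RNA per the labels' protocols. The deposited values are log2 signals, 1 per probe set and array, produced by the authors in Affymetrix Expression Console, according to the submitters' processing notes. Its version, summary method and normalization are not given in the sources used. That the scale is log2 follows from the range of the values. Of 35557 probe sets, 21789 had 1 platform symbol, 1621 several and 12147 none. The 23410 with a symbol were tested with limma 3.58.1 in R 4.3.3 (two-sided, no block, no filter). For a gene with several single-symbol probe sets, the one with the highest mean stood for it.

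Across tested probe sets, the deviations of 2 arrays with the same number from their group means had correlations of 0.911, 0.821 and 0.82 in pairs 1 to 3, or 0.802, 0.61 and 0.652 without exact ties. The numbers therefore pair the arrays, which the labels do not state, but the printed standard errors and intervals come from the fit without the block. The replicate block was an alternative, as were 2 rescalings, a filter on the dimmest 40%, other tested sets and priors, array weights and left-out arrays. Precision is limited by the number of arrays.

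The 10 genes and the lists were chosen with earlier results of these data known. Of each list up to 4 genes with the lowest p were named, fewer for markers of other cells, with some defining markers added. limma was tested on simulated data drawn independently for each array. Those data held neither the pairing nor the exact ties of these arrays, so that test does not cover them.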

Additional observations from a re-analysis of the deposited data

How the results depend on the processing

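No fit called any of the 10 genes, with limma adjusted p of 0.399 at lowest over 21 alternatives. Over all tested probe sets limma called 1, against 0 with the replicate block and 47 with it as a random effect, whose correlation was 0.956, and 0 to 2 with arrays left out: 2 without wild-type replicate 3 and 0 without both arrays of any 1 number. The block changed no call among the 10 genes. The median difference of the 10 genes moved from 0.0008 to -0.014 under quantile normalization and to -0.023 under median centring, and the median of all tested probe sets moved to -0.017 and -0.024. Leaving out arrays gave a lowest median of -0.040, without wild-type replicate 3, and a highest of 0.037, without fosB-null replicate 3 or wild-type replicate 2.

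Of 191 differences recomputed for the 10 genes 25 changed sign, all from values below 0.1 in size and none past the threshold. Lpl was -0.011 with quantile normalization. With median centring Lpl was -0.016, Tyrobp -0.018 and Igf1 -0.0068. Cd9 was 0.0004 with array weights. With arrays left out the differences ranged from -0.047 to 0.039 for Trem2, from -0.022 to 0.038 for Tyrobp, from -0.068 to 0.13 for Clec7a, from -0.039 to 0.062 for Lpl and from -0.041 to 0.036 for Gpnmb. They ranged from -0.020 to 0.045 for Igf1, from -0.073 to 0.028 for Lgals3, from -0.18 to 0.017 for Fabp5 and from -0.058 to 0.011 for Cd9. These ranges include fits without 1 array, which leave its same-numbered array without a partner. Without both arrays of replicate 1, 2 or 3, Trem2 differed by -0.013, 0 and -0.013. Cst7 was above 0 in every fit, from 0.16 to 0.42. The cause of these changes was not tested.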
